A study of Mus musculus with 9 samples.

Results

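The SOCS family, the suppressors of cytokine signalling, was followed in mouse bone marrow-derived macrophages (BMDMs) as the 8 genes Socs1 to Socs7 and Cish. They were chosen by symbol and not by a threshold on measured values, but with earlier results of these data known. All 8 were found among the 46095 symbols of the deposited count table. RNA sequencing covered 3 groups of 3 libraries each, namely cells given LPS plus BHB, cells given LPS, and control cells. All 9 libraries came from wild type Balb/c mice, labelled 6 week. The labels give no dose, time or agent beyond the group names, no library with BHB alone was analysed here, and the labels do not say whether replicates came from separate animals or cultures, so p-values measure the spread between these libraries, which may be technical.

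SOCS proteins are feedback inhibitors of the JAK-STAT pathway. A cytokine bound to its receptor activates JAK kinases, these phosphorylate STAT transcription factors, and STATs switch on SOCS genes, whose proteins bind phosphorylated receptors or kinases through an SH2 domain. The shared carboxy-terminal SOCS box binds elongins B and C and cullin 5, and so brings a ubiquitin ligase to the target. In macrophages SOCS1 is known as a brake on interferon signalling and SOCS3 as a brake on interleukin 6 signalling.

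The promoters of Cish, Socs1 and Socs3 are shown because these 3 genes rose most in LPS over control and because their promoters hold matches to the sequence bound by STAT or interferon-responsive factors. RefSeq sequence on build GRCm38.p6 was used, from 250 bases before to 50 bases after the annotated start base, 5′ to 3′ on the strand of the gene. Capitals mark matches to TTCNNNGAA, the core of a STAT site, in Cish and Socs3, and to GAAANNGAAA, an interferon-type repeat, in Socs1. The regions are chr9:107296409-107296708 on the plus strand for Cish, chr16:10785487-10785786 on the minus strand for Socs1 and chr11:117969317-117969616 on the minus strand for Socs3. The gene spans given below come from another annotation, GENCODE. They begin further upstream for Cish (107296026) and Socs3 (117970047), so both of these windows lie inside them. Positions are counted from the RefSeq start.
Cish: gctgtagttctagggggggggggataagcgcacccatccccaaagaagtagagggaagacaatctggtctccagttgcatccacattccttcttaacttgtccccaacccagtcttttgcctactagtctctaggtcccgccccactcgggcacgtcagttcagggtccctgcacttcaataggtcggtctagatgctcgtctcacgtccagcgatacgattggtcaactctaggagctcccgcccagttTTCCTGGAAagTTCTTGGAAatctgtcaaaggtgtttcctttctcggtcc
Socs1: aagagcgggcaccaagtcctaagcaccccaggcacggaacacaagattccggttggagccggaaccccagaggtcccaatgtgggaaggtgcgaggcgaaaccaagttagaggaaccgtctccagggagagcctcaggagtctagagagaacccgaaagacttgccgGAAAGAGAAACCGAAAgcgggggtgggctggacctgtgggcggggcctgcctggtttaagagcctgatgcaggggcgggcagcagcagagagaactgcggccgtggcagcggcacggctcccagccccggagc
Socs3: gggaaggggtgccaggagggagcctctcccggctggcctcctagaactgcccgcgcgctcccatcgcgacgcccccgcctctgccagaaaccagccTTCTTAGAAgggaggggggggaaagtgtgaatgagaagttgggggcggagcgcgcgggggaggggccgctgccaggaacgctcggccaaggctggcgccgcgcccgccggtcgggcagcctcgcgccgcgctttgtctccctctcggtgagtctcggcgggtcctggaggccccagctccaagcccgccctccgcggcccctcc
Cish had 2 matches, TTCCTGGAA with its first base on the start base and TTCTTGGAA beginning 11 bases after it. Socs3 had 1 match, TTCTTAGAA, which began 154 bases before the start base. Socs1 had 2 overlapping matches, GAAAGAGAAA and GAAACCGAAA, which began 83 and 77 bases before the start base. Both strands were searched. TTCNNNGAA was found in 8.3% of the 32851 mouse promoters of the same length, and GAAANNGAAA in 3.44%. The Socs4 promoter, also kept for description, had no match to these motifs, to the STAT core with a spacer of 4 bases (TTCNNNNGAA, found in 6.95% of promoters) or to the NF-kB consensus (8.46%). No member promoter that was searched matched these last 2 motifs. The Socs6 promoter was searched but is not printed, and it had no match to any of these motifs. Socs2, Socs5 and Socs7 had no promoter in the sequences used and were not searched. A match describes letters in this window and is not evidence of binding.

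The libraries held between 29633411 and 32798920 counts, and values are given as CPM, the counts per 1000000 of the library total after TMM adjustment. Macrophage markers were present throughout, with all 11 measured markers tested and Adgre1, which encodes F4/80, between 810.7 and 1430 CPM. The 12 neutrophil and precursor markers summed to 2.06 to 7.97 CPM. Of these, Ly6g, Mpo and Elane lay between 0 and 0.338 CPM, while S100a8 reached 3.74 CPM. One feature of the control libraries touches results against them. The summed level of 12 LPS-responsive genes was 25070 to 25350 CPM in the LPS libraries, against 25.7 CPM in control replicate 1, 207.8 in control replicate 2 and 222.2 in control replicate 3. Results of members against control that lost their call or moved by over 0.4 on the log2 scale without control replicates 2 and 3 are therefore given both ways. In bulk RNA, fewer cells of a type and less RNA per cell cannot be told apart.

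All 8 members passed the filter on low counts. Cish and Socs1, with 0 and 2 control libraries at the filter's level of 0.318 CPM, needed the libraries given LPS to pass it. In LPS against control, 6 of 8 members were higher and 2 lower in the quasi-likelihood test of edgeR (two-sided, threshold 0.05 after Benjamini-Hochberg adjustment over 14026 genes), where 38.4% of all tested genes were called higher and 41.4% lower. With BHB added to LPS, 4 of 8 members were higher and 0 lower than in LPS alone, against 26.4% and 24.4% of all tested genes. At an unadjusted p under 0.05 the count of members lower in that comparison was also 0, as it was by DESeq2. Against control, LPS plus BHB had 7 of 8 members higher and 1 lower, against 38.0% and 40.4% of all tested genes. The median log2 fold change of the 8 members was 1.11 in LPS against control and 0.25 in LPS plus BHB against LPS, where the medians over all tested genes were -0.06 and 0.01. Comparisons against control share the same control libraries, and both comparisons that involve LPS alone share those libraries.

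**Figure D1:**
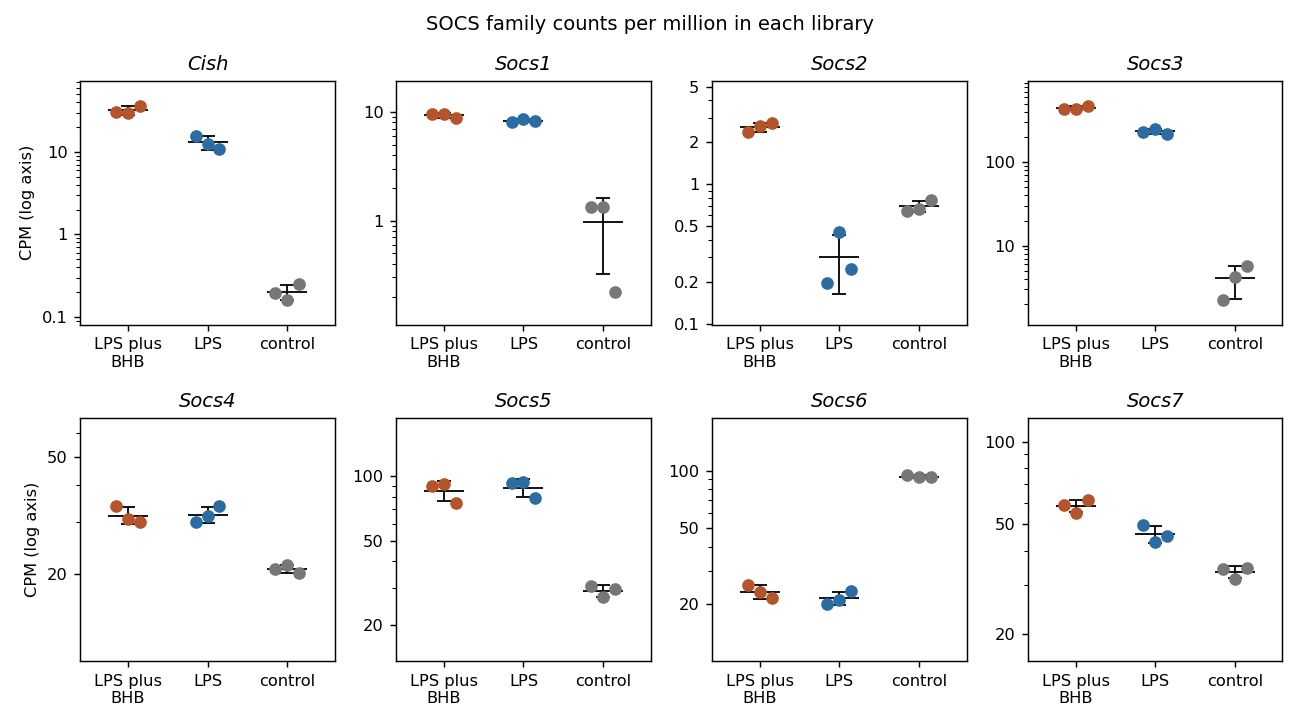
CPM of each SOCS family gene (log axes, each panel on its own scale) in LPS plus BHB, LPS and control libraries. Coloured points are libraries, and black bars are the mean ± SD of 3 libraries. Cish and Socs3 are highest in LPS plus BHB and lowest in control, Socs2 is lowest in LPS, and Socs6 is highest in control.

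Cish and Socs2 encode CIS and SOCS2, closely related proteins known as inhibitors of STAT5 signalling that STAT5 itself induces. Both were higher in LPS plus BHB than in LPS, but they moved in opposite directions in LPS against control. Cish, on chromosome 9 at 107296026 to 107302784 of GRCm38, had 30.2, 29.7 and 36.3 CPM in LPS plus BHB libraries, 15.8, 12.6 and 11.0 CPM in LPS libraries and 0.197, 0.161 and 0.248 CPM in control libraries. The 3 groups did not overlap, and the control values rest on 7, 6 and 9 counts, close to no expression. The log2 fold change was 1.29 ± 0.12 (SE, adjusted p = 1.29e-08, edgeR) in LPS plus BHB against LPS. It was 6.00 ± 0.22 (adjusted p = 1.54e-15) in LPS against control, and 1.79% of tested genes had a larger change in either direction. Of the Cish exons, 4.1% lie under the opposite-strand gene Gm17040, which had 0 counts in all libraries, and 7.5% under Gm17041, not analysed here, and without stated strand counting reads of overlapping genes cannot be told apart.

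Socs2, on chromosome 10 at 95385362 to 95417180, was a low-level gene throughout. It had 2.37, 2.61 and 2.75 CPM in LPS plus BHB libraries, 0.198, 0.455 and 0.248 CPM in LPS libraries and 0.648, 0.669 and 0.772 CPM in control libraries. All 3 LPS libraries lay below all 3 controls, and all 3 LPS plus BHB libraries lay above both other groups. The counts behind these values were 70, 75 and 78 in LPS plus BHB, 6, 13 and 7 in LPS and 23, 25 and 28 in control. Socs2 rose 8.59-fold in LPS plus BHB over LPS as a ratio of mean CPM (log2 fold change 3.09 ± 0.36, adjusted p = 3.43e-07), the largest change of any member in that comparison, and 0.934% of tested genes moved further. It fell in LPS against control by 1.21 on the log2 scale (SE 0.39, adjusted p = 0.00746), and that call was lost without control replicates 2 and 3 (log2 fold change -1.10, adjusted p = 0.0759). Socs2 was the only member that was lower in LPS and higher in LPS plus BHB than in control (1.88 ± 0.31, adjusted p = 1.46e-05).

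Within each library, Cish counts were 11.4 to 13.2 times Socs2 counts in LPS plus BHB libraries, 27.7 to 79.7 times in LPS libraries, where Socs2 had 6 to 13 counts, and 0.24 to 0.32 times in control libraries. The summed low-level markers of 2 other groups of cell types were, like Socs2, lowest in LPS, but single markers differed. S100a8 averaged 3.38 CPM in LPS plus BHB, 1.78 in LPS and 1.59 in control, and Epor 0.0465, 0.0817 and 1.57. The 12 neutrophil and precursor markers summed to 5.32 to 7.97 CPM in LPS plus BHB, 2.06 to 3.66 in LPS and 5.76 to 6.87 in control, and of the 4 tested 3 were higher in LPS plus BHB than in LPS and 3 lower in LPS than in control. The 10 erythroid and megakaryocyte markers summed to 1.52 to 2.10, 0.495 to 0.874 and 2.62 to 3.03 CPM in the same groups, with 2 of 3 tested higher in LPS plus BHB than in LPS, or 1 without LPS plus BHB replicate 2, LPS replicate 1 or LPS replicate 3. Among the neutrophil and precursor markers, Ly6g and Mpo were at 0 in all LPS plus BHB libraries. The 3 called higher there than in LPS were S100a8, Ngp and Ltf. The part of these cells in the Socs2 result was not tested.

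Socs1 and Socs3 encode the members that can inhibit JAK kinases directly through a kinase inhibitory region. Socs3, which blocks signalling from the interleukin 6 receptor chain gp130 and from the receptor for granulocyte colony-stimulating factor, was the most abundant member in both LPS groups. Socs3, on chromosome 11 at 117966079 to 117970047, had 438, 431 and 470 CPM in LPS plus BHB libraries, 233, 248 and 221 CPM in LPS libraries and 2.25, 4.15 and 5.71 CPM in control libraries. The 3 groups did not overlap. Mean levels were 446 ± 21.1, 234 ± 13.9 and 4.04 ± 1.73 CPM (SD, n = 3) in these groups. Socs3 was 1.91-fold higher in LPS plus BHB than in LPS as a ratio of means (log2 fold change 0.93 ± 0.15, adjusted p = 0.00188), with all 3 libraries above all 3. In a test against a fold of 1.5 in place of no change, its adjusted p was 0.0642. The spread of the uneven control libraries enters the same estimate. With single libraries left out, the log2 fold change ran from 0.88 to 0.97. The adjusted p of edgeR's test against no change then ran from 7.44e-10 to 0.0125. Without control replicates 2 and 3 the log2 fold change was 0.93.

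Against control, Socs3 was 58.0-fold higher in LPS (log2 fold change 5.85 ± 0.22, adjusted p = 1.46e-07). The control values followed the order of the 12 LPS-responsive genes, with replicate 1 lowest. Without control replicates 2 and 3 the log2 fold change was 6.70 in LPS against control and 7.63 in LPS plus BHB against control, in place of 5.85 and 6.78. The part of those libraries' LPS-responsive signal in the Socs3 control level was not tested.

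Socs1, on chromosome 16 at 10782240 to 10785536, rose in LPS over control but did not pass the test in LPS plus BHB against LPS. It had 9.50, 9.59 and 8.79 CPM in LPS plus BHB libraries, 8.01, 8.64 and 8.24 CPM in LPS libraries and 1.32, 1.34 and 0.221 CPM in control libraries. Control replicate 3 was the lowest, with 8 counts against 47 and 50 in the others, which is not the order of the LPS-responsive genes. The log2 fold change in LPS against control was 3.10 ± 0.35 (adjusted p = 7.08e-06), or 2.65 without control replicates 2 and 3, and in LPS plus BHB against control it was 3.27, or 2.81 without them. The addition of BHB to LPS gave 0.16 with a 95% interval of -0.46 to 0.78 (adjusted p = 0.663), although all 3 LPS plus BHB libraries lay above all 3 LPS libraries. Without control replicates 2 and 3, whose spread enters the same estimate, the SE was 0.127 in place of 0.279 and the adjusted p was 0.317.

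Socs3 counts were 44.9 to 53.5 times Socs1 counts in LPS plus BHB libraries and 26.8 to 29.1 times in LPS libraries, with no overlap. In control replicates 1, 2 and 3 the ratio was 1.70, 3.10 and 25.9.

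**Figure D2:**
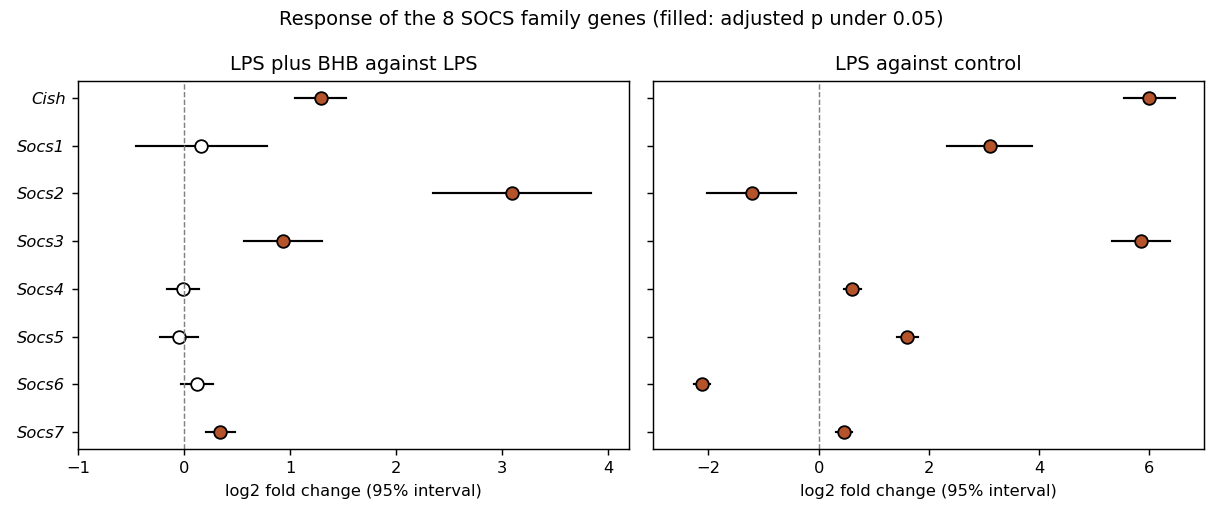
Log2 fold change of each SOCS family gene with its 95% interval in LPS plus BHB against LPS (left) and LPS against control (right). Filled points passed an adjusted p of 0.05 in edgeR's quasi-likelihood test. In the left panel Cish, Socs2, Socs3 and Socs7 are filled and lie above 0, and the intervals of the other 4 genes include 0. In the right panel Socs2 and Socs6 lie below 0. The horizontal scales differ.

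Socs4 and Socs5 encode members with long amino-terminal regions that have been linked to epidermal growth factor receptor turnover. Both rose in LPS against control, and neither passed the test in LPS plus BHB against LPS. Socs5, on chromosome 17 at 87107679 to 87137839, had 90.1, 92.2 and 74.9 CPM in LPS plus BHB libraries, 92.9, 94.3 and 79.0 CPM in LPS libraries and 30.6, 27.1 and 29.6 CPM in control libraries. Both LPS groups overlapped each other and lay wholly above control. The log2 fold change was 1.61 ± 0.09 (adjusted p = 1.93e-10) in LPS against control, and -0.05 with an interval of -0.23 to 0.13 in LPS plus BHB against LPS (adjusted p = 0.655).

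Socs4, on chromosome 14 at 47276931 to 47296102, showed the same order with a smaller change. It had 33.9, 30.6 and 29.997 CPM in LPS plus BHB libraries, 30.01, 31.3 and 33.8 CPM in LPS libraries and 20.8, 21.4 and 20.1 CPM in control libraries. Its log2 fold change was 0.61 ± 0.07 (adjusted p = 1.67e-07) in LPS against control and -0.01 with an interval of -0.16 to 0.14 in LPS plus BHB against LPS (adjusted p = 0.928). Among all tested genes, 63.7% changed more than Socs4 in LPS against control.

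Socs6 and Socs7 encode members that bind insulin receptor substrates, and SOCS6 also acts on the receptor tyrosine kinase KIT. Against control they moved in opposite directions in LPS. Socs6, on chromosome 18 at 88665224 to 88927481, had 25.3, 23.2 and 21.5 CPM in LPS plus BHB libraries, 20.1, 21.02 and 23.4 CPM in LPS libraries and 94.6, 92.6 and 92.5 CPM in control libraries. It fell in LPS against control by 2.12 on the log2 scale (SE 0.07, adjusted p = 5.62e-17), the smallest p of any member in that comparison. Its log2 fold change in LPS plus BHB against LPS was 0.12, with an interval of -0.03 to 0.27 (adjusted p = 0.187), and these groups overlapped. Socs6 was the only member lower than control in both LPS groups, with a log2 fold change of -1.997 ± 0.07 (adjusted p = 1.38e-16) in LPS plus BHB against control.

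Socs7, on chromosome 11 at 97362551 to 97398542, had 58.7, 55.2 and 61.3 CPM in LPS plus BHB libraries, 49.8, 43.1 and 45.5 CPM in LPS libraries and 34.3, 31.6 and 34.7 CPM in control libraries. The 3 groups did not overlap and formed a ladder of small steps. The log2 fold change was 0.34 ± 0.07 (adjusted p = 0.000178) in LPS plus BHB against LPS and 0.46 ± 0.07 (adjusted p = 2.27e-06) in LPS against control. Of all tested genes, 49.7% changed more than Socs7 in LPS plus BHB against LPS. Against a fold of 1.5 neither step was called (adjusted p = 1 for both).

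Levels of different genes were compared as CPM per kilobase of merged exons. In control cells the order of mean levels was Socs6 at 8.22, Socs7 at 4.62, Socs5 at 4.54, Socs4 at 3.02, Socs3 at 1.40, Socs1 at 0.330, Socs2 at 0.0731 and Cish at 0.0315 CPM per kilobase. Socs7 and Socs5 overlapped there, as did Socs1 and Socs2. In LPS the order was led by Socs3 at 81.0, with Socs5 at 13.8, Socs7 at 6.35, Socs4 at 4.61, Socs1 at 2.85, Cish at 2.04, Socs6 at 1.90 and Socs2 at 0.0315. Cish and Socs6 overlapped. In LPS plus BHB it was Socs3 at 154, Socs5 at 13.4, Socs7 at 8.04, Cish at 4.995, Socs4 at 4.58, Socs1 at 3.19, Socs6 at 2.06 and Socs2 at 0.270, with Cish and Socs4 overlapping. Thus Cish was the lowest member in control and ranked 4 of 8 in LPS plus BHB.

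The summed family level was 190.9 ± 6.4 CPM per kilobase in LPS plus BHB, 112.6 ± 5.78 in LPS and 22.23 ± 0.404 in control (SD, n = 3). Socs3 made up 80.85 ± 1.13% of that sum in LPS plus BHB, 71.91 ± 0.862% in LPS and 6.27 ± 2.62% in control. Socs6 made up 1.08 ± 0.113%, 1.69 ± 0.214% and 36.97 ± 0.847% in the same groups. In both LPS groups the family sum was mostly Socs3, while in control it was spread over Socs6, Socs7, Socs5 and Socs4. With the length of the longest annotated transcript in place of merged exons, Socs5 stood above Socs7 in control, and Socs6 stood above Socs1 in both LPS groups. By that length the mean of Socs6 was also above that of Cish in LPS, but they overlapped, at 3.33 and 3.36 CPM per kilobase in LPS replicate 1. Socs1 and Cish overlapped in LPS as well, and the Socs6 share in control was 47.7 to 49.4%.

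**Figure D3:**
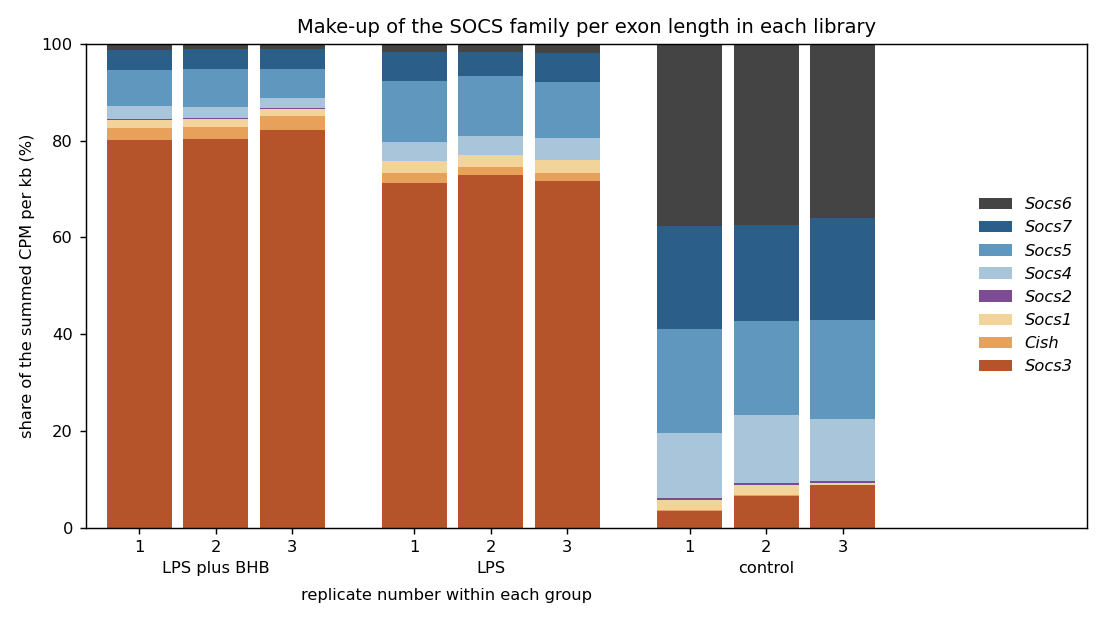
Share of the summed CPM per kilobase of the SOCS family taken by each gene in every library, as stacked bars in percent. Socs3 fills 80.1 to 82.2% of the bar in LPS plus BHB libraries, 71.2 to 72.9% in LPS libraries and 3.51 to 8.72% in control libraries, where Socs6 is the largest part.

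The rest of the pathway was read from lists of its components, given as called genes of those tested, to be read against the percentages over all tested genes given for the family. Among the JAK kinases and STAT factors, 6 of 11 were higher and 4 lower in LPS plus BHB than in LPS, and likewise 6 and 4 in LPS against control. Stat5a, the factor that CIS restrains, averaged 361.4 ± 17.8 CPM in LPS plus BHB, 642.6 ± 8.91 in LPS and 38.67 ± 0.624 in control. It fell in LPS plus BHB against LPS by 0.83 on the log2 scale (SE 0.04, adjusted p = 1.64e-12), while Cish was higher. Jak1, a kinase that SOCS1 and SOCS3 inhibit, fell by 0.94 in the same comparison (SE 0.04, adjusted p = 1.59e-13). Tyk2 and Jak3 rose there, by 0.65 and 1.10 (adjusted p = 6.57e-10 and 1.94e-09, edgeR). Jak2 had a log2 fold change of 0.10 there (adjusted p = 0.151), which passed the test without LPS plus BHB replicate 3 (0.15, adjusted p = 0.0242), and it rose by 3.76 in LPS against control. Stat3 was higher by 0.18 in LPS plus BHB against LPS (adjusted p = 0.00134) and lower by 0.43 in LPS against control.

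Of 28 JAK-coupled cytokine receptor genes tested among 34, 9 were higher and 6 lower in LPS plus BHB than in LPS, and 7 were higher and 14 lower in LPS than in control. With library totals in place of TMM, 4 in place of 7 were higher in LPS. Il2ra and Ghr, both among the 7, did not reach the filter's level in all 3 control libraries. They could be tested only through the libraries given LPS, so their place in that count is fixed in part by the filter. The same holds for Epor, among the 14 lower, which could be tested only through the control libraries. Csf2rb, the common beta chain whose signalling CIS dampens, averaged 547.4 ± 22.4 CPM in LPS plus BHB and 249 ± 6.6 in LPS (log2 fold change 1.14 ± 0.04, adjusted p = 1.3e-14). Its copy Csf2rb2 changed by 1.21, and reads of the 2 genes may be split between them. Il6st, which encodes gp130, the docking site of SOCS3, fell by 0.61 in LPS plus BHB against LPS and by 0.82 in LPS against control. Il6ra fell to 4.03 CPM in LPS against 136.2 CPM in control, and Csf3r, another receptor that SOCS3 restrains, to 42.6 CPM against 253.7 CPM.

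Of the 25 listed ligands of these receptors 16 were tested. Of these, 11 did not reach the filter's level in all 3 control libraries and could be tested only through the libraries given LPS, so a count of ligands higher than control is fixed in large part by the filter and none is given. In LPS plus BHB against LPS 4 of the 16 were higher and 5 lower. Il10, which signals through STAT3, averaged 238.1 ± 41.4 CPM in LPS plus BHB and 31.2 ± 4.6 in LPS (log2 fold change 2.94 ± 0.23, adjusted p = 4.54e-05). Lif, a ligand of gp130 receptors, averaged 185.9 ± 11.7 CPM and 27.9 ± 1.19 CPM in these groups (2.74 ± 0.17, adjusted p = 6.28e-06). Csf2, which encodes the STAT5-activating cytokine GM-CSF, moved the other way, at 25.2 ± 8.26 CPM in LPS plus BHB and 109.5 ± 2.68 in LPS (-2.12 ± 0.26, adjusted p = 0.00053). Il27 and Ebi3, also among the listed ligands, were lower too, by 1.22 and 0.87 (adjusted p = 0.000326 and 2.67e-05, edgeR). Il6 had a log2 fold change of -0.33 (adjusted p = 0.239), and it passed the test without control replicate 1 (adjusted p = 0.000185), without control replicates 2 and 3 (0.000261) and in a fit of the 6 libraries compared, with no control (0.000267).

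**Figure D4:**
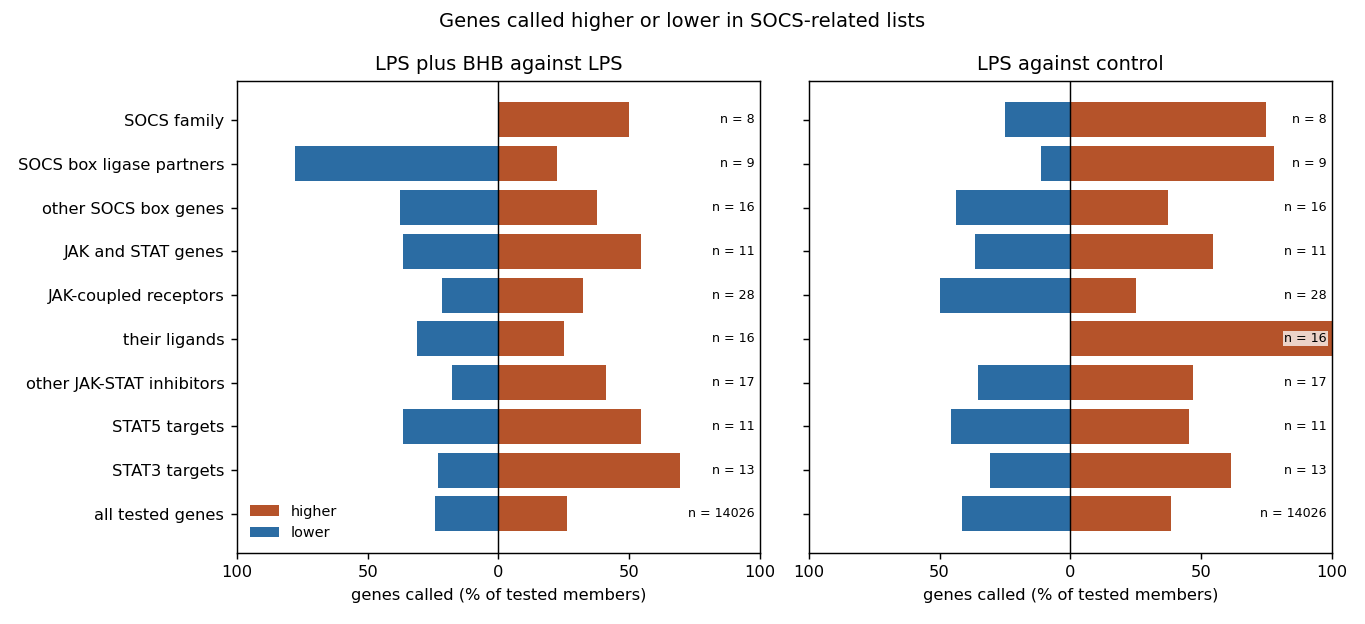
Percent of tested genes called higher (right of 0) or lower (left of 0) in the SOCS family, 8 lists of related genes and all tested genes, for LPS plus BHB against LPS and for LPS against control, with the number tested at the right. In LPS plus BHB against LPS no SOCS family gene is called lower, and 7 of 9 ligase partners are. The bar of the ligands in LPS against control is not to be read as a result, since 11 of the 16 passed the filter only through the libraries given LPS. Il2ra and Ghr among the receptors, Cish and Socs1 in the family and Cish among STAT5 targets also passed only through those libraries. Epor among the receptors and Asb10 and Spsb1 among other SOCS box genes, all lower in LPS, passed only through the control libraries.

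Reported targets of STAT5 and STAT3 were read as 2 lists, each of which holds SOCS members. Of 11 STAT5 targets, which include Cish and Socs2, 6 were higher and 4 lower in LPS plus BHB than in LPS, and 3 were higher without LPS replicate 2. Bcl6, a transcriptional repressor, rose by 1.18 there, and Pim1, a serine kinase, fell by 0.44. Of 13 STAT3 targets, which include Socs3, 9 were higher and 3 lower. The genes with the smallest p there were Sbno2 at 0.83 ± 0.05, Fos at 2.70 ± 0.15 and Bcl3 at 0.89 ± 0.07, and the lower genes Pim1, Nfil3 and Etv3 lay between -0.44 and -0.40. In LPS against control 5 STAT5 targets were higher and 5 lower, and 8 STAT3 targets were higher and 4 lower. Cish, among the 5 higher STAT5 targets, could be tested only through the libraries given LPS.

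Of the 9 tested genes listed as SOCS box ligase partners, 2 were higher and 7 lower in LPS plus BHB than in LPS. The count lower was 4 without LPS plus BHB replicate 3, and the count higher was 1 without LPS replicate 2. The list holds Cul2 and Rbx1, lower by 0.28 and 0.29, beside Cul5 and Rnf7, lower by 0.18 and 0.13. Tceb2, which encodes elongin B, was higher by 0.24 (adjusted p = 0.00138, edgeR). Tceb1, which encodes elongin C, had 48.8 ± 4.31 CPM in LPS plus BHB, 67.3 ± 1.62 in LPS and 29.1 ± 0.418 in control. It was lower by 0.46 (SE 0.06, adjusted p = 2.71e-06) in LPS plus BHB against LPS and higher by 1.21 in LPS against control, where 7 of the 9 partners were higher and 1 lower, or 0 lower without control replicates 2 and 3. Ube2f, the enzyme that attaches NEDD8 to cullin 5, rose by 2.29 in LPS against control. Of 16 other genes with a SOCS box, 6 were higher and 6 lower in LPS plus BHB against LPS, and 6 and 7 in LPS against control. Asb10 and Spsb1, both among the 7 lower, could be tested only through the control libraries. Their place in that count is fixed in part by the filter.

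Among 17 other negative regulators of JAK-STAT signalling, 7 were higher and 3 lower in LPS plus BHB than in LPS, and 8 and 6 in LPS against control. Library totals in place of TMM gave 5 and 10 lower in these comparisons. The phosphatase gene Ptpn2 rose by 2.78 in LPS against control while Ptpn6, which encodes the phosphatase SHP-1, fell by 1.56. Of 15 adaptor and growth factor receptor targets of SOCS proteins, 8 were higher and 1 lower in LPS plus BHB than in LPS, and 5 were higher without LPS plus BHB replicate 2, LPS replicate 1 or LPS replicate 2. In LPS against control 4 of them were higher and 9 lower, including Fes, a tyrosine kinase gene, by 2.69.

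The genes most like each member were sought by Pearson correlation of log2 CPM over the 9 libraries, among genes averaging 5 CPM or more. The libraries share their groups, so these values describe a pattern over 3 conditions. Socs3 was closest to Mmp14 (r = 0.9994), Il1b and Olr1 (both 0.9986), and Cish to Itga5 (0.9992), Csnk1a1 (0.999) and Card19 (0.9989). Socs2 was closest to Sash1 (0.9839), Slc9a3r1 (0.9827) and Bcr (0.9822), all lowest in LPS. Sash1 averaged 561.2 CPM in LPS plus BHB, 180.7 in LPS and 292.7 in control. Socs6 was closest to Gmnn, Neat1 (both 0.9982) and Wls (0.998), which were highest in control. Socs1 was closest to Atg4a (0.9773), Socs4 to Fxr1 (0.9936), Socs5 to Ankib1 (0.9978) and Socs7 to 5730508B09Rik (0.9921).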

How the data were processed

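The authors deposited 1 table of raw, unnormalized counts by symbol, with a column for each of 9 libraries. Per the submitters' processing notes, reads were aligned with HISAT2 to mm10. For the counting tool, the annotation and strandedness, values were not given in the sources used here. Genes passing filterByExpr (minimum count 10) were kept, which left 14026 genes with 99.956% of the counts. TMM-scaled counts went into edgeR 4.0.16 under R 4.3.3 (quasi-likelihood, robust, group as the only term, all 9 libraries, 6 residual degrees of freedom), with two-sided tests and Benjamini-Hochberg adjustment over all tested genes at 0.05. Each SE was derived from the F statistic, as |log2 fold change| over its square root, and 95% intervals were built from the SE, so both are approximate. The code was tested on simulated data. Gene models and exon lengths came from the GENCODE M21 annotation of GRCm38, the same build as mm10. Exon words of 31 bases shared with other genes made up at most 10.41% of a member (Cish), so reads from shared stretches may be split.

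The alternatives were other scalings, no filter, DESeq2 1.42.0, a replicate block, the 6 libraries compared, a test against a fold of 1.5, each library left out, control replicates 2 and 3 left out, and another gene length. The members and lists were chosen with earlier results of these data known. Besides the 8 members, genes were named if among the 3 smallest p-values of a list and comparison, or if a SOCS protein acts on or is induced by their product; which of these to print was chosen after their values were seen. Likeness used the 3 highest correlations. Some list results are not reported here.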

Additional observations from a re-analysis of the deposited data

How the results depend on the processing

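Of the members' log2 fold changes under alternatives, 398 kept their direction and their side of the threshold, 6 lost their call and 4 changed sign. The 4 sign changes came from single libraries left out, for 2 genes that were not called in any of these fits of LPS plus BHB against LPS: log2 fold changes ran from -0.0651 to 0.0291 for Socs4 and from -0.136 to 0.038 for Socs5. Of the 6 lost calls, 5 were in the test against a fold of 1.5, which called 2 members for the addition of BHB to LPS in place of 4 (adjusted p = 0.0642 for Socs3 and 1 for Socs7), 6 in place of 8 in LPS against control (0.269 for Socs4 and 1 for Socs7) and 7 in place of 8 in LPS plus BHB against control (0.331 for Socs4). That test demands a larger change by construction. The other was Socs2 in LPS against control without control replicates 2 and 3, where 1 control library remained and was assumed to vary like the other groups; the cause was not tested.

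Same-numbered libraries did not deviate together (r from -0.036 to 0.0616), so the numbers were not taken as pairs, and a fit with the replicate block called 4, 8 and 8 members in LPS plus BHB against LPS, LPS against control and LPS plus BHB against control, as without it. With library totals in place of TMM, 4283 genes were higher and 7084 lower in LPS against control, in place of 5390 and 5801, as the median log2 fold change shifted by -0.27. In LPS plus BHB against control the counts were 3922 and 7366 in place of 5328 and 5662 (shift -0.33). No member changed direction or call with it, but 2 of 112 called genes of the related lists changed sign in LPS against control, 6 of 119 in LPS plus BHB against control and 0 of 90 for the addition of BHB to LPS. Depth limits Socs2 in LPS and Cish in control most, at 6 to 13 and 6 to 9 counts.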
